A study of Sus scrofa with 12 samples.

Results

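The genes described here are the chaperones of the endoplasmic reticulum (ER) and the unfolded protein response. They were taken by gene symbol, from a list drawn up with earlier results of these data known. In it 40 symbols were listed, covering ER chaperones, disulfide isomerases, ER-associated degradation, stress sensors and the translocon. Of these, 28 had a row under their symbol among the 22861 genes of the expression table. In all, 27 of the 11875 genes tested belonged to the list. The remaining 12 symbols were SDF2L1, MANF, P4HB, SYVN1, EDEM1, DERL1, DERL2, HERPUD1, OS9, ERN1, SEC61B and SEC61G. They had no such row and were not analysed here. Of the 22861 identifiers, 11411 carried no symbol, so these genes may be present in unnamed rows. Below, a row means a row under the symbol.

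The samples were Biceps femoris, a large ham muscle, of male piglets at postnatal day 1. Purebred Iberian piglets (IB, 6 animals) were compared with crossbred piglets of Iberian sows and Duroc boars (IBxDU, 5 animals), the question being which genes differ with the genetic type. No other treatment or allele was given for either group, and both groups had Iberian dams. Some IB littermates must be present, because more IB piglets were sequenced than there were IB litters, but which animals shared a dam is not in the labels, so p-values measure the spread between piglets rather than between litters.

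Proteins that enter the secretory pathway pass through the translocon into the ER, where chaperones and disulfide isomerases fold them, and chains that fail to fold are sent back to the cytosol for degradation. When unfolded chains accumulate, the sensors ATF6, IRE1 (encoded by ERN1) and PERK (encoded by EIF2AK3) become active. ATF6 and the IRE1 product XBP1 then raise transcription of the chaperone and degradation genes, while PERK slows translation and favours ATF4. In muscle the ER is continuous with the sarcoplasmic reticulum, and several of the same chaperones bind calcium there.

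Expression was measured by RNA-Seq as RPKM, a read density per kilobase of transcript scaled to sequencing depth. The exon reads recovered from the table ran from 16931429 to 30591354 per animal, with ranges that overlapped between the groups. The tissue carried its label: ACTA1, the skeletal muscle actin, lay between 18623 and 42761 RPKM. A pair of IBxDU libraries stood apart in composition. IBxDU-402 had the highest summed macrophage markers (165 RPKM, against 23.3 to 61.5 in IB), fibroblast and matrix markers (5928 RPKM, against 1006 to 2754 in IB) and adipocyte markers (118 RPKM, against 7.70 to 72.6 in IB). IBxDU-429 had the lowest summed muscle fibre markers (28955 RPKM, against 40395 to 50745 in IB) and the largest scaling factor (1.24 by the median of ratios). Each main count is also given without both animals. This pair was chosen after the data were seen, first because these 2 animals had the highest HSPA5, and their composition was noted afterwards, so leaving them out lowers the differences of the ER genes in part by construction. In whole muscle, more transcript per cell and more cells of a type cannot be told apart.

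Most ER genes had a higher mean in IBxDU, but none passed adjustment. Of the 27 members tested, 26 had a higher mean log2 level in IBxDU, where 66.92% of all genes tested did. The split was 23 of 27 under upper quartile scaling (53.2% of all genes), under median-of-ratios scaling (51.3%) and without IBxDU-402 and IBxDU-429 (52.2%). Their median log2 fold change, taken on log2(RPKM + 0.1) as IBxDU minus IB, was 0.50, and that of all genes tested was 0.13. With limma, 14 members had an unadjusted p under 0.05 and a higher mean in IBxDU, which was 51.85% of the members against 6.0% of all genes tested. In the other direction, 0 members reached that p, against 2.02% of all genes. After Benjamini-Hochberg adjustment over all genes, 0 members passed a threshold of 0.05 (0.0168% of all genes passed), and the lowest adjusted p of a member was 0.413. The voom alternative on recovered reads gave 14 members at an unadjusted p under 0.05 and also 0 after adjustment. The thresholds of the study, an unadjusted p of at most 0.01 and a fold of at least 1.5, were met by 5 members (HSPA5, HSP90B1, DNAJB11, SEL1L and ATF6), all higher in IBxDU, against 0.985% of all genes. The study set these thresholds on a test of exon read counts. Here they were set on limma of log2(RPKM + 0.1), so the genes passing are not the calls of the study.

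These counts depended on the pair of libraries named above. Without IBxDU-402 and IBxDU-429, 4 members (HSP90B1, SEL1L, EDEM3 and ATF6) had an unadjusted p under 0.05 against 2.62% of all genes, 0 met the thresholds of the study, and the median log2 fold change of the members was 0.20 against 0.02 for all genes. Leaving out IBxDU-402 alone left 9 members at that p (7.85% of all genes), and leaving out IBxDU-429 alone left 8 (2.86%). Without IBxDU-412 the count was 17 (8.41%). Scaling the libraries by the median of ratios gave 9 (2.98%) and a median of 0.38, with that of all genes at 0.01, so the distance between the members and all genes stayed at 0.37 (0.38 without scaling).

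**Figure D1:**
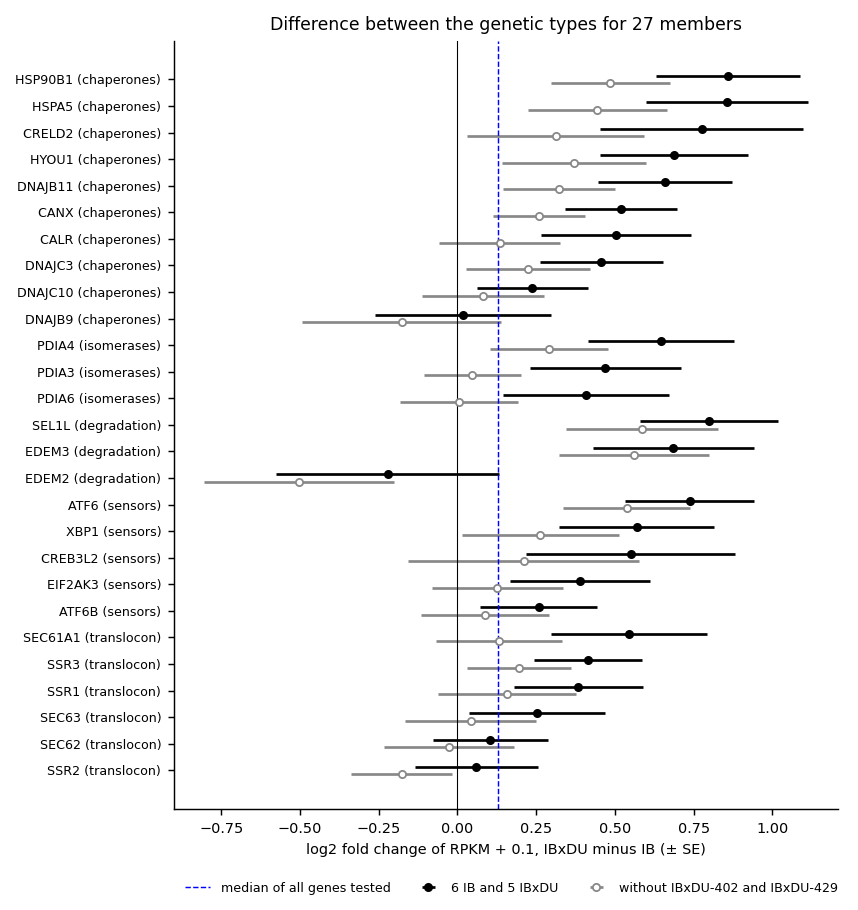
Log2 fold change of RPKM + 0.1 (IBxDU minus IB, horizontal axis) with its standard error for the 27 members, by branch. Black points are from 6 IB and 5 IBxDU animals, open grey points leave out IBxDU-402 and IBxDU-429, and the dashed line is the median of all genes tested (0.13). The grey points lie closer to 0 for every member except EDEM2 (-0.50), DNAJB9 (-0.18) and SSR2 (-0.18).

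The chaperones of the ER lumen and membrane had 10 members tested, of which 7 (70.0%) had an unadjusted p under 0.05. All 7 were higher in IBxDU, where 6.0% of all genes tested had such a p. The median log2 fold change was 0.59. Without IBxDU-402 and IBxDU-429 the count was 1 (2.62% of all genes) and the median was 0.28. Under median-of-ratios scaling the count was 5 (2.98% of all genes) and the median was 0.47. HSPA5 (ENSSSCG00000005601), also called BiP, is the main ER Hsp70 and holds the stress sensors inactive. Its level in IB ran from 60.7 RPKM in the lowest animal through a median of 78.5 to 97.0 in the highest. In IBxDU it was 214 RPKM in IBxDU-402, 72.3 in IBxDU-412, 115 in IBxDU-426, 142 in IBxDU-427 and 218 in IBxDU-429. Thus 4 IBxDU animals lay above every IB animal, while IBxDU-412 lay below the IB mean of 78.5 ± 12.1 RPKM (SD, n = 6). The IBxDU mean was 152 ± 63.2 RPKM (SD, n = 5), with a log2 fold change of 0.86 ± 0.26 (SE), a limma adjusted p of 0.464 and an exact two-sided permutation p of 0.0173. Without IBxDU-402 and IBxDU-429 the log2 fold change was 0.44 ± 0.22.

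HSP90B1 (ENSSSCG00000000849), the ER form of Hsp90 also called GRP94, had the smallest p among the members. Its RPKM in IB was 34.0 at the lowest, 43.1 at the median and 52.4 at the highest. The IBxDU animals had 116 (IBxDU-402), 46.9 (IBxDU-412), 59.6 (IBxDU-426), 71.0 (IBxDU-427) and 107 RPKM (IBxDU-429). The order of the IBxDU animals was that of HSPA5 except at the top, and IBxDU-412 again fell inside the IB range. The difference was 0.86 ± 0.23 on the log2 scale, with an adjusted p of 0.413 by limma and an exact permutation p of 0.00433. It was 0.49 ± 0.19 without the pair.

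DNAJB11 (ENSSSCG00000011798) is a J-domain cochaperone of HSPA5. Its IB values lay between 8.29 and 11.85 RPKM with a median of 9.51, and its IBxDU values were 23.5, 11.85, 12.7, 12.3 and 20.9 RPKM in IBxDU-402, IBxDU-412, IBxDU-426, IBxDU-427 and IBxDU-429. Every IBxDU animal was above every IB animal, but the gap was 11.850 to 11.854 RPKM, and 3 of the 5 IBxDU animals sat within 1 RPKM of the highest IB animal. The log2 fold change was 0.66 ± 0.21 (limma adjusted p = 0.539). The exact permutation p was 0.00216, the smallest that 462 relabelings can give.

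CANX and CALR, the membrane-bound and soluble lectin chaperones of glycoproteins, differed in how the groups overlapped. CANX was 31.3 ± 2.59 RPKM in IB and 46.2 ± 13.5 in IBxDU (SD, n = 6 and 5), with no overlap, though the nearest animals had 34.5 and 34.6 RPKM. CALR was 123 ± 23.2 RPKM in IB and 182 ± 77.4 in IBxDU, and 3 IBxDU animals exceeded the highest IB value of 154 RPKM, 1 of them by less than 1 RPKM. Non-overlap of this kind was seen for 3 members in all (DNAJB11, CANX and ATF6), with IBxDU higher, against 0.808% of all genes tested.

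The other chaperones spanned a wide range of differences. HYOU1, a large Hsp70-like protein that serves as an exchange factor for HSPA5, was 10.3 ± 1.27 RPKM in IB and 17.6 ± 6.08 in IBxDU (log2 fold change 0.69 ± 0.24). DNAJC3, a cochaperone also known as an inhibitor of PERK, was 7.65 ± 0.79 and 10.8 ± 2.97 RPKM (0.46 ± 0.20). DNAJC10, a J-domain protein with reductase activity, was 11.7 ± 1.35 and 13.97 ± 3.06 RPKM (0.24 ± 0.18, adjusted p = 0.704 by limma).

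CRELD2, a small secreted ER stress product, was among the members that varied most between animals of 1 group. In IB it ran from 2.75 RPKM through a median of 3.74 to 6.42, and in IBxDU it was 16.0 (IBxDU-402), 4.36 (IBxDU-412), 6.50 (IBxDU-426), 4.92 (IBxDU-427) and 8.53 RPKM (IBxDU-429). IBxDU-402 held 5.84 times the level of the lowest IB animal, while IBxDU-412 and IBxDU-427 lay inside the IB range. The groups differed by 0.78 ± 0.32 on the log2 scale (limma adjusted p = 0.576), and 0.31 ± 0.28 without the pair.

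DNAJB9, the J-domain protein that returns IRE1 to its inactive state through HSPA5, did not follow the other chaperones. Its IB values were 13.4 RPKM at the lowest, 21.6 at the median and 34.7 at the highest, and its IBxDU values were 21.2 (IBxDU-402), 15.3 (IBxDU-412), 16.7 (IBxDU-426), 28.5 (IBxDU-427) and 34.8 RPKM (IBxDU-429). The groups overlapped over almost their whole range, with a log2 fold change of 0.02 ± 0.28 that became -0.10 under median-of-ratios scaling. IBxDU-402, which had the highest HSP90B1 of all animals, had less DNAJB9 than the IB mean of 23.1 RPKM.

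**Figure D2:**
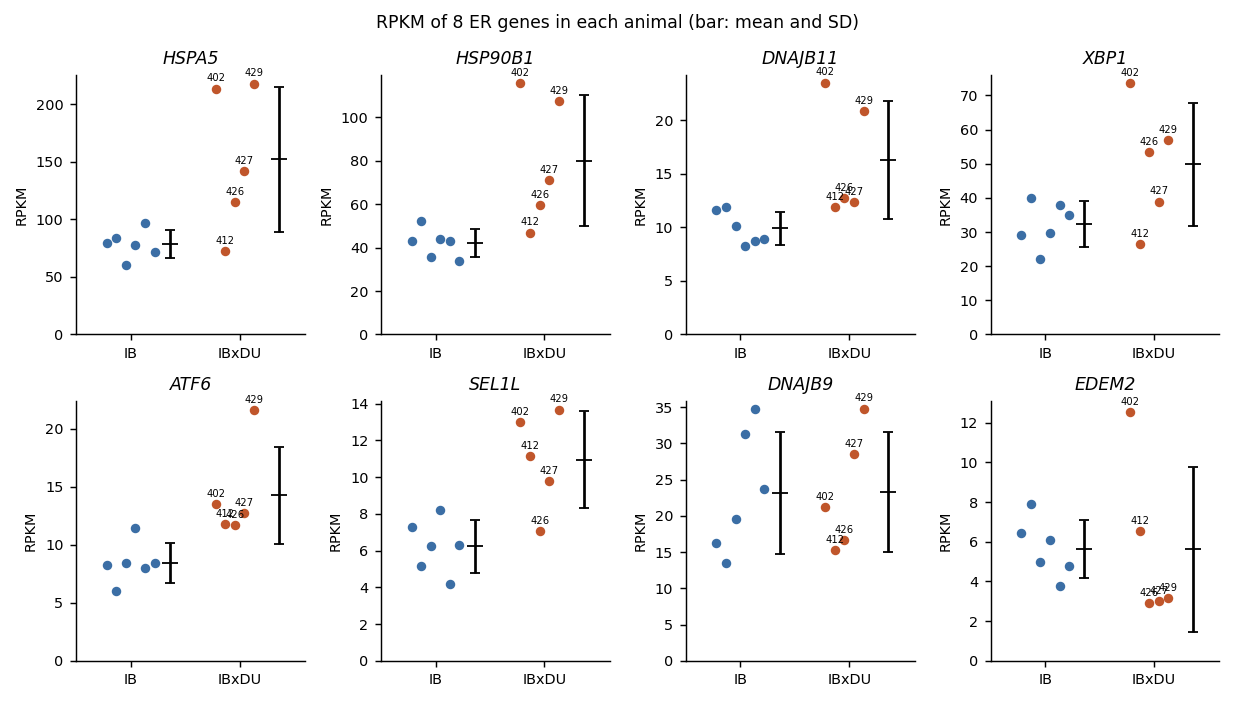
RPKM (vertical axes, from 0) of 8 members in each of 6 IB animals (blue) and 5 IBxDU animals (orange, with animal numbers), and the bars are means with SD. HSPA5, HSP90B1, DNAJB11 and XBP1 were highest in IBxDU-402 or IBxDU-429, ATF6 was above 11.6 RPKM in every IBxDU animal, DNAJB9 overlapped throughout, and EDEM2 was near 3 RPKM in 3 IBxDU animals.

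Disulfide isomerases form and rearrange disulfide bonds in the ER. All 3 tested had a higher mean in IBxDU, against 66.92% of all genes tested. Of them, 1 (PDIA4) had an unadjusted p under 0.05, against 6.0% of all genes in that direction. PDIA4 was 27.5 ± 5.13 RPKM in IB and 45.1 ± 18.5 in IBxDU (log2 fold change 0.65 ± 0.23, limma adjusted p = 0.549). PDIA3, which works with CANX and CALR on glycoproteins, was 59.7 ± 7.55 and 89.1 ± 43.3 RPKM. PDIA6 was 38.5 ± 7.23 and 55.2 ± 30.4 RPKM. The highest values were those of IBxDU-402, which had 75.2 RPKM of PDIA4, 160 of PDIA3 and 108 of PDIA6, while IBxDU-412, IBxDU-426 and IBxDU-427 lay between 31.4 and 35.3, between 59.6 and 62.8, and between 35.7 and 40.1 RPKM. Without both IBxDU-402 and IBxDU-429 the median log2 fold change of the 3 isomerases was 0.05. Then 0 of them had an unadjusted p under 0.05 (2.62% of all genes, with IBxDU higher). ERO1B, an oxidase that recharges the isomerases, was under the filter of 0.5 RPKM, at 0.362 ± 0.139 RPKM in IB and 0.386 ± 0.118 in IBxDU. It rested on 5 to 16 reads per animal and was not tested.

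ER-associated degradation had 3 members with a row. SEL1L (ENSSSCG00000002414), the adaptor of the HRD1 ubiquitin ligase, was 4.16 RPKM at the lowest, 6.27 at the median and 8.19 at the highest in IB. It was 13.0 (IBxDU-402), 11.2 (IBxDU-412), 7.07 (IBxDU-426), 9.79 (IBxDU-427) and 13.7 RPKM (IBxDU-429) in IBxDU, so IBxDU-412, which lay at the IB level for most chaperones, was above every IB animal here and IBxDU-426 was not. The log2 fold change was 0.80 ± 0.22, with a limma adjusted p of 0.437 and an exact permutation p of 0.0108, and it was 0.59 ± 0.24 without the pair. EDEM3, a mannosidase-like protein that marks misfolded glycoproteins, was 3.55 ± 0.87 RPKM in IB and 5.99 ± 2.56 in IBxDU (0.69 ± 0.26). Its highest value was 10.3 RPKM in IBxDU-429, and IBxDU-402 was the lowest of its group at 4.001 RPKM.

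EDEM2, which starts mannose trimming of misfolded glycoproteins, was the only member with a lower mean log2 level in IBxDU, and it had the largest spread within groups (pooled SD 0.67 on the log2 scale). IB values were 3.76 RPKM at the lowest, 5.52 at the median and 7.88 at the highest. IBxDU-402 had 12.5 RPKM and IBxDU-412 had 6.52, whereas IBxDU-426, IBxDU-427 and IBxDU-429 had 2.91, 2.99 and 3.17 RPKM. The highest value and the 3 lowest values over all 11 animals were thus all in IBxDU, on either side of the IB range. The group means were 5.65 and 5.63 RPKM and the log2 fold change was -0.22 ± 0.35 (limma adjusted p = 0.865).

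Of the sensors and transcription factors, 5 were tested and all 5 had a higher mean in IBxDU, against 66.92% of all genes tested. An unadjusted p under 0.05 was reached by 2 (ATF6 and XBP1), against 6.0% of all genes in that direction. The count was 1 (ATF6) under upper quartile scaling (3.42% of all genes), under median-of-ratios scaling (2.98%) and without IBxDU-402 and IBxDU-429 (2.62%). ATF6 (ENSSSCG00000006346), the sensor that is cut in the Golgi to release a transcription factor, was 5.98 RPKM at the lowest, 8.34 at the median and 11.5 at the highest in IB. It was 13.5, 11.8, 11.7, 12.8 and 21.6 RPKM in IBxDU-402, IBxDU-412, IBxDU-426, IBxDU-427 and IBxDU-429. All IBxDU animals were above all IB animals, and IBxDU-429 stood well above its own group. The difference was 0.74 ± 0.21 on the log2 scale, with a limma adjusted p of 0.437 and an exact permutation p of 0.00433. It was 0.62 ± 0.18 under median-of-ratios scaling and 0.54 ± 0.20 without the pair, when the unadjusted p was 0.0212. The paralogue ATF6B was 9.65 ± 1.70 RPKM in IB and 11.6 ± 2.30 in IBxDU (0.26 ± 0.19, adjusted p = 0.700).

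XBP1 (ENSSSCG00000030996), whose transcript is spliced by IRE1 to give the active factor, was 22.04 RPKM at the lowest, 32.3 at the median and 40.1 at the highest in IB. IBxDU-402 had 73.5 RPKM, IBxDU-412 had 26.5, IBxDU-426 had 53.5, IBxDU-427 had 38.9 and IBxDU-429 had 57.0. Here 3 IBxDU animals exceeded the IB range and 2 lay inside it. The log2 fold change was 0.57 ± 0.25, with a limma adjusted p of 0.592 and an exact permutation p of 0.0758. Gene-level RPKM does not separate the spliced from the unspliced form.

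EIF2AK3 (ENSSSCG00000008208), the PERK kinase, was low in both groups. IB animals lay between 2.04 and 3.15 RPKM with a median of 2.41, and IBxDU animals had 3.38 (IBxDU-402), 2.53 (IBxDU-412), 2.76 (IBxDU-426), 2.74 (IBxDU-427) and 5.37 RPKM (IBxDU-429). Apart from IBxDU-402 and IBxDU-429, the IBxDU values fell inside the IB range. The log2 fold change was 0.39 ± 0.22 (limma adjusted p = 0.641), and 0.13 ± 0.21 without the pair. CREB3L2, a factor of the ATF6 family known in mouse for secretion of cartilage matrix, ran from 1.19 RPKM through a median of 2.98 to 4.97 in IB. It was 6.32 (IBxDU-402), 4.30 (IBxDU-412), 2.52 (IBxDU-426), 3.37 (IBxDU-427) and 5.81 RPKM (IBxDU-429) in IBxDU. The lowest animal was IB-503, and 2 IBxDU animals exceeded the IB range. On the log2 scale the difference was 0.55 ± 0.33 (limma adjusted p = 0.648).

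The translocon branch had 6 members tested and the smallest median log2 fold change of the branches (0.32). All 6 had a higher mean in IBxDU without scaling, against 66.92% of all genes tested. The count was 4 under upper quartile scaling (53.2% of all genes), under median-of-ratios scaling (51.3%) and without the pair (52.2%). SEC61A1, the pore of the translocon, was 20.1 ± 3.56 RPKM in IB and 30.9 ± 12.8 in IBxDU (0.55 ± 0.25, limma adjusted p = 0.611). SSR3 and SSR1, subunits of the translocon-associated protein complex, were 59.0 ± 7.67 against 79.9 ± 18.6 RPKM and 61.3 ± 13.0 against 80.2 ± 19.3 RPKM. The subunit SSR2 was the most abundant member in IB and hardly differed in mean, at 169 ± 24.6 and 182 ± 64.9 RPKM, with 296 RPKM in IBxDU-402 and 139 to 169 in the other IBxDU animals. SEC62 and SEC63, which assist post-translational entry and HSPA5 at the pore, were 19.96 ± 3.47 against 21.5 ± 4.11 RPKM and 5.98 ± 1.14 against 7.31 ± 2.47 RPKM. The signs of SSR2 and SEC62 turned under either library scaling and without the pair, so no direction is claimed for them. Of the branch, 2 members (SEC61A1 and SSR3) had an unadjusted p under 0.05, against 6.0% of all genes with IBxDU higher. The count was 0 under upper quartile scaling (3.42% of all genes), under median-of-ratios scaling (2.98%) and without the pair (2.62%).

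By animal, IBxDU-402 and IBxDU-429 held the highest value of all 27 members, IBxDU-402 for 17 and IBxDU-429 for 10. Their profiles were not the same. The median deviation from the mean of each gene over the 11 animals was 0.79 in IBxDU-402 and 0.67 in IBxDU-429 on the log2 scale. The isomerases deviated on average by 1.24 in IBxDU-402 and 0.50 in IBxDU-429, the lumen chaperones by 0.80 and 0.74, and the sensors and factors by 0.59 and 0.72. EDEM3, EIF2AK3 and SEC63 were among the genes highest in IBxDU-429, at 10.3, 5.37 and 11.6 RPKM, where IBxDU-402 had 4.001, 3.38 and 6.63 RPKM. IBxDU-412, at a median deviation of -0.13, lay with the IB animals, which ranged from -0.36 in IB-345 to -0.04 in IB-431, and IBxDU-426 and IBxDU-427 lay at 0.01 and 0.03. IB-345 held the lowest value for 11 members, and 25 members had their lowest value in an IB animal.

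**Figure D3:**
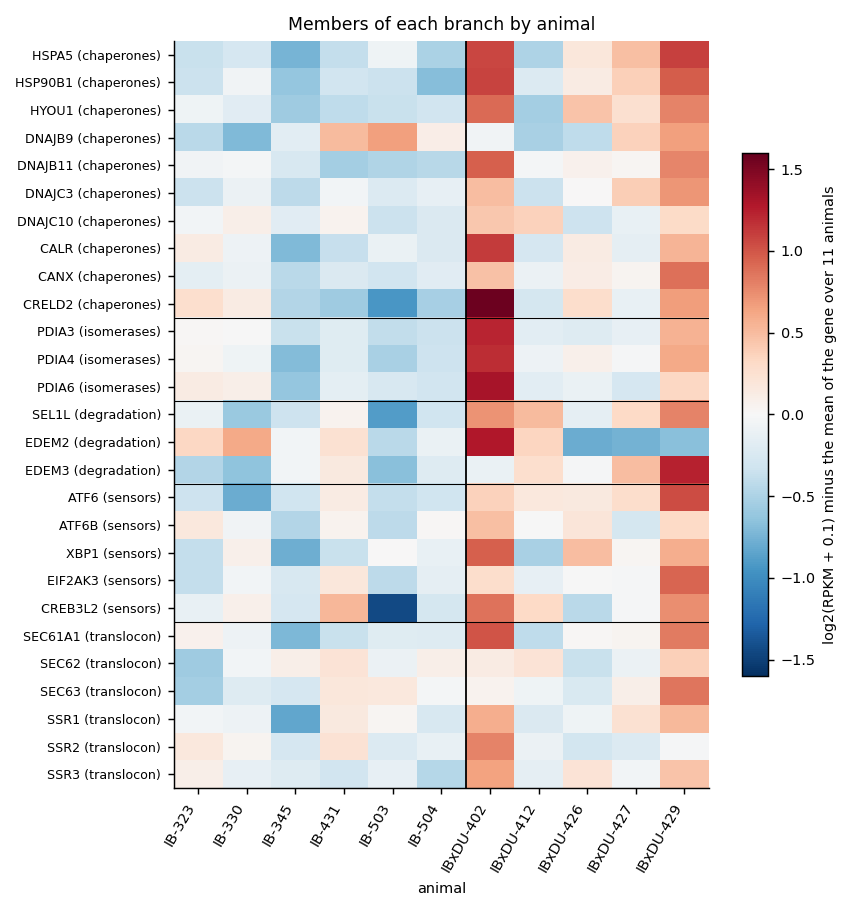
Deviation of log2(RPKM + 0.1) from the mean of each gene over 11 animals (colour) for the 27 members (rows, by branch) in 6 IB and 5 IBxDU animals (columns, split by the vertical line). IBxDU-402 and IBxDU-429 are the darkest red columns, with medians of 0.79 and 0.67, and IBxDU-412 (-0.13) resembles the IB columns; EDEM2 and DNAJB9 break the column pattern.

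The marker sums that moved with these animals differed between them. In IBxDU-402 the macrophage, fibroblast and adipocyte sums were the highest of all animals, while in IBxDU-429 the macrophage sum (26.6 RPKM) and the fibroblast sum (2295 RPKM) lay inside the IB ranges. The endothelium sum, from 3 of 5 markers with a row, lay above the IB maximum of 102 RPKM in both animals, at 123 RPKM in IBxDU-402 and 112 in IBxDU-429. Of the fibroblast and matrix list, 7 of 9 genes had a row and PDGFRA was listed at 0 in every animal. Macrophage markers had 5 of 8 with a row, summing to 13.4 to 165 RPKM in IBxDU, and adipocyte markers 3 of 6, summing to 9.09 to 118 RPKM. Plasma cell markers, from cells rich in ER, had 2 of 6 genes with a row and summed to 0.372 to 2.83 RPKM in IB and 0.369 to 2.07 in IBxDU, so they were near 0 in both. The part of other cell types in the ER gene levels was not tested.

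Across animals, the correlation of HSPA5 was higher with the other members than with genes at large, in the median and as a description. HSPA5 and HSP90B1 kept a nearly fixed proportion: the ratio of their RPKM lay between 1.54 and 2.25 in all 11 animals, a 1.46-fold range, whereas HSPA5 itself covered a 3.59-fold range. The ratio of HSPA5 to ATF6 covered a 2.58-fold range. After removing the group means, the median correlation of HSPA5 with the 26 other members was 0.63 over 11 animals, and with all other genes tested 0.12. Without IBxDU-402 and IBxDU-429 these medians were 0.20 and -0.15. By this measure 8 of the 26 other members stood among the 100 genes most like HSPA5, out of 11874 genes. They were HSP90B1, SEC61A1, DNAJC3, HYOU1, XBP1, SSR1, CANX and CALR. Without the pair 2 of the 26 members stood there (HSP90B1 and DNAJC3), and within IB alone 1 did (SSR1). SEL1L, EDEM3 and ATF6, all higher in IBxDU by over 0.6 on the log2 scale, had lower values with HSPA5 within groups (r = 0.19, 0.11 and 0.43), and these turned negative without the pair (-0.47, -0.27 and -0.05) and within IB alone (-0.53, -0.68 and -0.23). These values share the library and its depth between genes and are given as a description.

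Relations of HSPA5 with 7 genes were computed over the 11 animals on the log2 scale, with two-sided permutation tests that ignore the genetic type, so a difference between the groups that both genes share adds to r. With the group means removed, r was 0.93 for HSP90B1, 0.89 for HYOU1 and 0.83 for XBP1. Leaving out the animals with the most extreme HSPA5 narrows its range and lowers r in part by construction. HSP90B1 had a Pearson r of 0.97 (permutation p = 6.0e-05, adjusted over the 7 relations 0.00028) and a Spearman rho of 0.85 (permutation p = 0.00138). Without IBxDU-402 and IBxDU-429, the animals farthest from the median of HSPA5, r was 0.88. HYOU1 gave r = 0.94 and rho = 0.87 (permutation p = 8.0e-05 and 0.00090, r adjusted 0.00028), and r = 0.84 without the pair. XBP1 gave r = 0.89 and rho = 0.88 (permutation p = 0.00026 and 0.00070, r adjusted 0.00061), and r = 0.77 without the pair. For CALR (r = 0.85, rho = 0.83, permutation p = 0.00066 and 0.0031, r adjusted 0.00115) and PDIA4 (r = 0.85, rho = 0.79, permutation p = 0.0014 and 0.00525, r adjusted 0.00196) r was 0.58 and 0.52 without the pair, with permutation p of 0.101 and 0.145 and rho of 0.70 and 0.63.

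DNAJB9 (r = 0.39, rho = 0.37, permutation p = 0.236 and 0.260, r adjusted 0.275) and ATF3 (r = -0.30, rho = -0.15, permutation p = 0.373 and 0.655, r adjusted 0.373) did not pass the test, and r was 0.27 and -0.05 without the pair. The fibrillar collagen COL1A2, added after the data were seen because COL1A1 had no row, gave r = 0.40 and rho = 0.16 (permutation p = 0.228 and 0.634), and r = -0.45 without the pair. Within the 6 IB animals alone, HSP90B1, XBP1 and CALR gave r = 0.66, 0.80 and 0.72, with exact permutation p of 0.147, 0.0583 and 0.113, each 0.344 after adjustment. IBxDU had too few animals for its own value.

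**Figure D4:**
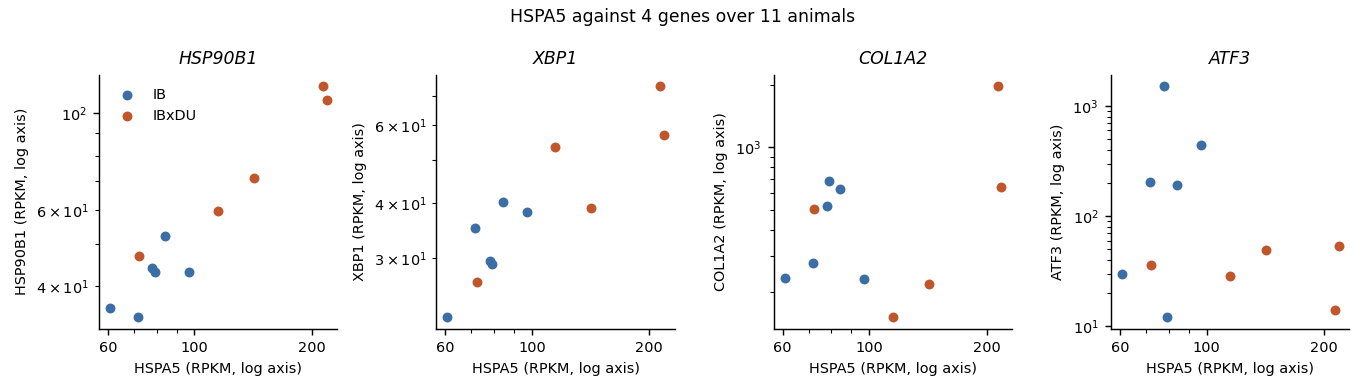
RPKM of HSPA5 (horizontal, log axis) against HSP90B1, XBP1, COL1A2 and ATF3 (vertical, log axes) in 6 IB (blue) and 5 IBxDU animals (orange). HSP90B1 and XBP1 follow HSPA5 over 11 animals (r = 0.97 and 0.89), and COL1A2 and ATF3 do not (r = 0.40 and -0.30).

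Of 115 other genes of the secretory and ER stress pathways, 84 had a row and 80 were tested. A higher mean in IBxDU was seen for 70 of them, and 10 (12.5%) had an unadjusted p under 0.05 in that direction, against 66.92% and 6.0% of all genes tested, 1 in the other, and 0 after adjustment by limma (lowest adjusted p 0.483). Their median log2 fold change was 0.24. Among 22 other folding enzymes 1 (4.545%) had such a p, a share under that of all genes. It was UGGT1, the sensor that returns unfolded glycoproteins to CANX and CALR, at 1.95 ± 0.42 RPKM in IB and 3.54 ± 1.35 in IBxDU (0.79 ± 0.24) with no overlap between the groups. FKBP7, a prolyl isomerase, was 4.04 ± 1.27 and 7.79 ± 5.77 RPKM (limma adjusted p = 0.620), and TXNDC11, a thioredoxin-domain protein, 7.81 ± 1.67 and 11.1 ± 3.68 RPKM (limma adjusted p = 0.613).

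Of 26 protein entry and glycosylation genes, 6 (23.08%) had an unadjusted p under 0.05, all higher in IBxDU, against 6.0% of all genes tested. The counts of these other lists are given for all 11 animals only. SRPRB, a subunit of the signal recognition particle receptor, was 6.82 ± 1.65 RPKM in IB and 11.1 ± 3.41 in IBxDU (0.68 ± 0.24, limma adjusted p = 0.539). ALG5, which makes the glucosyl donor of N-glycan assembly, was 6.53 ± 0.97 and 9.98 ± 2.85 RPKM, and OSTC, a subunit of the oligosaccharyltransferase, 12.7 ± 2.87 and 21.3 ± 9.93 RPKM. In the cytosolic part of ER-associated degradation 1 of 15 genes (6.667%) had such a p, a share near that of all genes. It was VCP, the ATPase that extracts chains from the ER, at 97.0 ± 16.8 and 123 ± 21.5 RPKM. UBE2G2, a ubiquitin-conjugating enzyme, was 9.65 ± 0.98 and 13.9 ± 5.27 RPKM, and NPLOC4, a cofactor of VCP, 25.5 ± 1.87 and 32.3 ± 6.44 RPKM. Of 11 other regulators 1 (9.091%) had such a p: RTCB, the ligase that joins the spliced XBP1 transcript, at 16.2 ± 1.33 and 21.9 ± 4.58 RPKM (0.41 ± 0.16). BAK1 and CREB3L1 had log2 fold changes of 0.47 ± 0.24 and 0.65 ± 0.40.

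Of 12 listed genes of the PERK and ATF4 arm, 6 had a row and were tested, and ATF4 itself had none. In IBxDU 3 of the 6 had a higher mean, against 66.92% of all genes, and 3 a lower mean. Their median log2 fold change was -0.10. An unadjusted limma p under 0.05 was reached by 1 gene higher in IBxDU (ASNS) and 1 higher in IB (ATF3). The shares of all genes were 6.0% and 2.02%. ATF3, a stress-induced factor, ran from 12.1 to 1513 RPKM in IB and from 14.1 to 53.5 in IBxDU (-2.14 ± 0.96, limma adjusted p = 0.609). PPP1R15A, which restores translation after PERK activity, was 60.6 ± 45.0 RPKM in IB and 24.6 ± 14.6 in IBxDU (-1.09 ± 0.54). ASNS, the asparagine synthetase and an ATF4 target, was 18.9 ± 23.4 and 52.1 ± 52.2 RPKM (1.84 ± 0.79), with 141 RPKM in IBxDU-402. The groups overlapped for each of these genes.

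**Figure D5:**
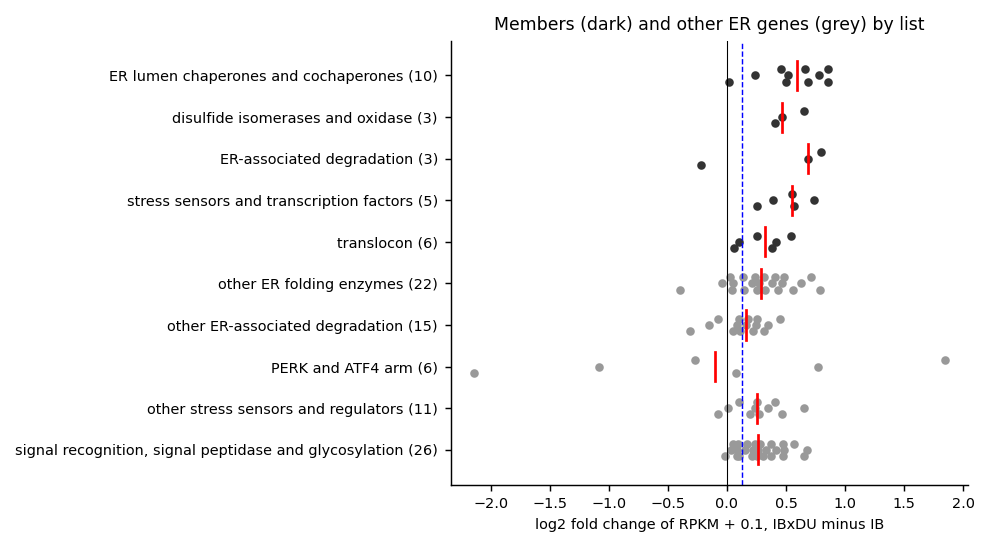
Log2 fold change of RPKM + 0.1 (IBxDU minus IB, horizontal axis) of single genes in the 5 branches (dark) and in 5 lists of other ER genes (grey), with the number tested in brackets, the median of each list in red and that of all genes tested (0.13) as a dashed line. Branch medians lie between 0.32 and 0.69, and those of the other lists between -0.10 and 0.29.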

How the data were processed

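The authors aligned mRNA reads to Sscrofa10.2 with the CLC Bio Genomic Workbench. Each deposited value is an RPKM of 1 gene in 1 animal. The fold change and p-value columns of their own comparison were not used. Among 12 labelled animals, 1 of IBxDU had no column and was not analysed here. Smallest whole read numbers were recovered for all 16953 genes above 0 (relative tolerance 1e-12).

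A gene was kept where the mean of IB or of IBxDU exceeded 0.5 RPKM. The limma package (3.58.1, under R 4.3.3) with a trended prior was applied to log2(RPKM + 0.1), with Benjamini-Hochberg adjustment over 11875 genes and no library scaling beyond RPKM. Tested on simulated data of this design, it called 39.7% of genes changed by 1 on the log2 scale and 85.7% of those changed by 2. The simulation drew independent noise for each gene, with the same SD in both groups. It held neither the wider IBxDU spread of genes such as HSPA5 nor shifts that genes share within an animal. These percentages may therefore not hold for the measured data. Single members were also tested by exact permutation of 462 relabelings, and correlations with 100000 resamples.

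Alternatives were the pseudocount, the filter, upper quartile and median-of-ratios scaling, a constant prior, leaving out each animal and, added after seeing the data, voom on recovered reads and leaving out IBxDU-402 and IBxDU-429 together, a pair picked for its high HSPA5. The members and lists were chosen with earlier results of these data known. Symbols were matched to gene identifiers by RefSeq and gene name tables. Each IBxDU value, with the IB lowest, median and highest, was given for HSPA5, HSP90B1, XBP1, ATF6, ERN1 and EIF2AK3 where a row existed. The same was given for the 5 members of smallest p in each direction and the 4 of largest spread within groups. Up to 3 genes of smallest p were named from each other list. The planned look at promoter and protein sequences was not made here. Of 11 planned relations of HSPA5, 7 had a row. The lymphocyte marker sum was 0.409 to 3.16 RPKM in IB and 0.814 to 3.85 in IBxDU, the endothelium sum 65.8 to 102 and 68.4 to 123, and the red cell sum 287 to 559 and 369 to 729.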

Additional observations from a re-analysis of the deposited data

Results flagged for a closer look

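In groups of 5 or 6 animals, 56 sets of values of 1 gene in 1 genetic type were looked at for a single animal far from the others, of which chance alone flags about 1 in 20, and 2 stood apart. ATF6 was 21.6 RPKM in IBxDU-429, where the gap to the next IBxDU animal on the log2 scale was 0.77 of the range of the group. SSR2 was 296 RPKM in IBxDU-402, where that gap was 0.74 of the range, also on the log2 scale.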

How the results depend on the processing

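No paired analysis was made, because the IB and IBxDU piglets came from different sows. Genes passing adjustment numbered 2, and 1 under upper quartile scaling, median-of-ratios scaling, a constant prior, voom and without both IBxDU-402 and IBxDU-429 (1 to 2 leaving out 1 animal); members numbered 0 throughout. Genes past the thresholds of the study numbered 179, and 105 without both animals (102 to 387 leaving out 1). Members past them numbered 5, with 3 under median-of-ratios scaling, 0 without both animals and 2 to 11 leaving out 1: 2 without IBxDU-429, 3 without IB-345 or IB-504 and 11 without IBxDU-412. Members at an unadjusted p under 0.05 numbered 14, with 9 under median-of-ratios scaling, 4 without both animals and 8 to 17 leaving out 1. The log2 fold change of DNAJB9 turned to -0.088 and -0.10 under upper quartile and median-of-ratios scaling and -0.18 without both animals (-0.14 to 0.15 leaving out 1), that of SEC62 to -0.0016, -0.015 and -0.028, and that of SSR2 to -0.048, -0.061 and -0.18 (-0.13 to 0.14 leaving out 1, lowest without IBxDU-402). Of 798 values of 42 single genes over 19 alternatives, 15 turned sign, in these 3 genes, and 0 passed adjustment. Leaving out both animals, picked for high HSPA5, lowers ER gene differences in part by construction, and the cause of the other shifts was not tested. Tested members rested on 79 to 10893 reads per animal.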

Other observations

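Within IB, DNAJB9 was higher in IB-431, IB-503 and IB-504 (31.3, 34.7 and 23.7 RPKM) than in IB-323, IB-330 and IB-345 (16.3, 13.4 and 19.5 RPKM). PPP1R15A and HSPA13, an Hsp70-like protein of microsomes, chosen after their values were seen, had the same division of animals. PPP1R15A was 114, 109 and 78.0 RPKM in the first 3 and 18.5, 21.1 and 23.6 in the others, and HSPA13 was 6.94, 10.3 and 7.64 against 2.41, 2.84 and 3.10 RPKM. Among IBxDU animals, IBxDU-427 and IBxDU-429 were the highest for all 3 genes, with 7.75 and 14.3 RPKM of HSPA13. HSPA5 did not divide the IB animals in this way, at 78.0, 97.0 and 71.7 RPKM against 79.1, 84.2 and 60.7. ASNS had 8.01, 7.16 and 4.55 RPKM in IB-431, IB-503 and IB-504 and 62.2, 29.6 and 2.12 in IB-323, IB-330 and IB-345.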
